A study of Mus musculus with 2 samples.

Results

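The regions described here lie in the mouse genome around imprinted genes, and the measurement is an array signal that depends on DNA methylation in the hypothalamus of adult females raised in small or in normal litters. With earlier results of these data known, members were defined by position alone, and no measured value entered the rule. They are the genomic probes that start within 10 windows of mouse build mm8, each named for an imprinted gene, and probes whose starts lay at most 500 bp apart were joined to a region. This gave 487 probes in 112 regions, of 23053 regions on the array. The probes fell into 9 of the 10 windows, on 6 chromosomes, because 0 probes of the files used here lay in the Snrpn window (chromosome 7, 59 to 60.8 Mb).

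The mice were FVB/NJ females without a transgene or mutant allele in the labels. Litters were set to 4 pups in the small-litter group (SL), a model of overfeeding during suckling, and to 9 pups in the control group (C). Hypothalami of both groups were taken at postnatal day 180, and DNA of 5 animals was mixed in equal amounts to a pool, with 2 pools and 10 animals a group. Each of the 2 arrays carried SL and C DNA together. SL was labelled with Cy5 and C with Cy3 on array 1, and the dyes were exchanged on array 2. The sources at hand do not say how the pools were divided over the arrays, and if the same pools were put on both, the differences between arrays are technical only. A pool holds all cell types of the hypothalamus, and no value of a single animal can be read from it.

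DNA was cut first with SmaI, which cuts CCCGGG only where the site is unmethylated and leaves blunt ends, and then with XmaI, which opens the remaining sites with overhangs that take up an adaptor. Fragments with adaptors at both ends were amplified, so that a fragment gives more signal the more often both of its ends are methylated. The signal is a relative amount and not a percentage of methylation. It also carries the length of the fragment, its amplification and the sequence of the probe, and signals of different regions are therefore given as ranks and not as folds.

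Imprinted genes are expressed mainly or only from the maternal or the paternal allele, in some or all tissues. Their domains hold control regions that receive DNA methylation in the egg or in sperm and keep it on that parental allele in body tissues. The control regions of H19 and of Dlk1 and Meg3 are methylated on the paternal allele, and those of Kcnq1ot1 (near Cdkn1c), Peg3, Mest, Peg10, Grb10, Nnat, Snrpn and Igf2r on the maternal allele. The Gnas domain holds regions of both kinds. Many of the genes act on growth, feeding or energy use: Igf2 is a growth factor and Igf2r the receptor that clears it, Cdkn1c is an inhibitor of the cell cycle, Gnas encodes the stimulatory G protein subunit of hormone receptors, and Grb10 is an adaptor that restrains insulin signalling. H19 and Meg3 are long noncoding RNAs, Nnat is a small membrane protein of neurons, Peg3 is a zinc finger protein, Peg10 derives from a retrotransposon and Mest encodes a hydrolase-like membrane protein.

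The assay reads DNA through CCCGGG alone, so the RefSeq promoters (build GRCm38.p6, 250 bases before to 50 after each start, 300 in all) of the genes were searched for it. CCCGGG reads the same on both strands. Of 40 imprinted genes listed for these domains 31 were found in the table, with 48 starts, and 8 starts of 7 genes held the site (16.7% of starts, against 13.5% of all 32851 starts). Of the 11 genes that name the windows 8 were found, with 18 starts, of which 4 held the site. All 4 stretches are shown because they are the promoters of the naming genes that hold the enzymes' site. The enzyme site is in capitals, with up to 60 bases of promoter on either side.
Gnas, chr2:174329756-174329821, plus strand: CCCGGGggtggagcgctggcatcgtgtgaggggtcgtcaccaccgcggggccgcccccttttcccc
Grb10, chr11:12028132-12028221, minus strand: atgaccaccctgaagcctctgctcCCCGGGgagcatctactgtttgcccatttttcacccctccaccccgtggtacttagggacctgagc
Grb10, chr11:12037569-12037670, minus strand: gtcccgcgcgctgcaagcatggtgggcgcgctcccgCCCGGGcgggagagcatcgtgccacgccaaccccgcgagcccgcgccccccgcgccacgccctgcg
Igf2r, chr17:12769725-12769850, minus strand: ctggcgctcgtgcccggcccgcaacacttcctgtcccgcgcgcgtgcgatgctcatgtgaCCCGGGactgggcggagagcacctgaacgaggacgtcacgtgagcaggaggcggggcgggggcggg
Snrpn had 4 starts in the table and 0 with the site. The array's probes are placed on mm8 and these sequences on a later build, so probes were not set against them, and no region below is assigned to a promoter, an exon or an intron.

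Over all 112 member regions 478 probes were kept. Of these regions 94 kept at least 2 probes with usable signal and were tested, out of 18545 regions tested on the array. The other 18 are single probes in the array design. In all 94 tested members every kept probe was well above background in both groups on both arrays, as in 17433 of all 18545 regions tested. The H19 to Cdkn1c window (chromosome 7) held 31 tested regions, Nnat (chromosome 2) 17, Meg3 (chromosome 12) 15, Gnas (chromosome 2) 12, Igf2r (chromosome 17) 6, Peg3 (chromosome 7) 4, Peg10 (chromosome 6) 4, Mest (chromosome 6) 3 and Grb10 (chromosome 11) 2. Over all genomic probes the median signal of a channel was 1658 and 1798 on array 1 and 1073 and 1089 on array 2, 94.6% to 95.9% of probes were well above background, and 0 were saturated.

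Member regions covered almost the whole range of fragment signal and were on the bright side of the array. Each region's signal in C, averaged over both arrays on the log2 scale after setting each channel to its median, was ranked among all 18545 regions tested, from 0 (dimmest) to 100 (brightest). The median rank of the 94 members was 62.9, with ranks from 3.03 to 99.7, against a median of 50.8 for the other 6640 tested regions of the same 6 chromosomes. In array 1 alone the members' median rank in C was 63.15 and in array 2 it was 61.97. In SL the rank over both arrays was 62.8. The brightest 10% of the array's regions included 15 of the 94 members (16.0%), and the dimmest 10% included 4 (4.26%). The median member signal in C was 4324 on array 1 and 2700 on array 2, against 2155 and 1320 over all regions tested, and in SL it was 4165 and 2575, against 1929 and 1266. These are descriptions of 1 design of probes and were not tested.

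**Figure D1:**
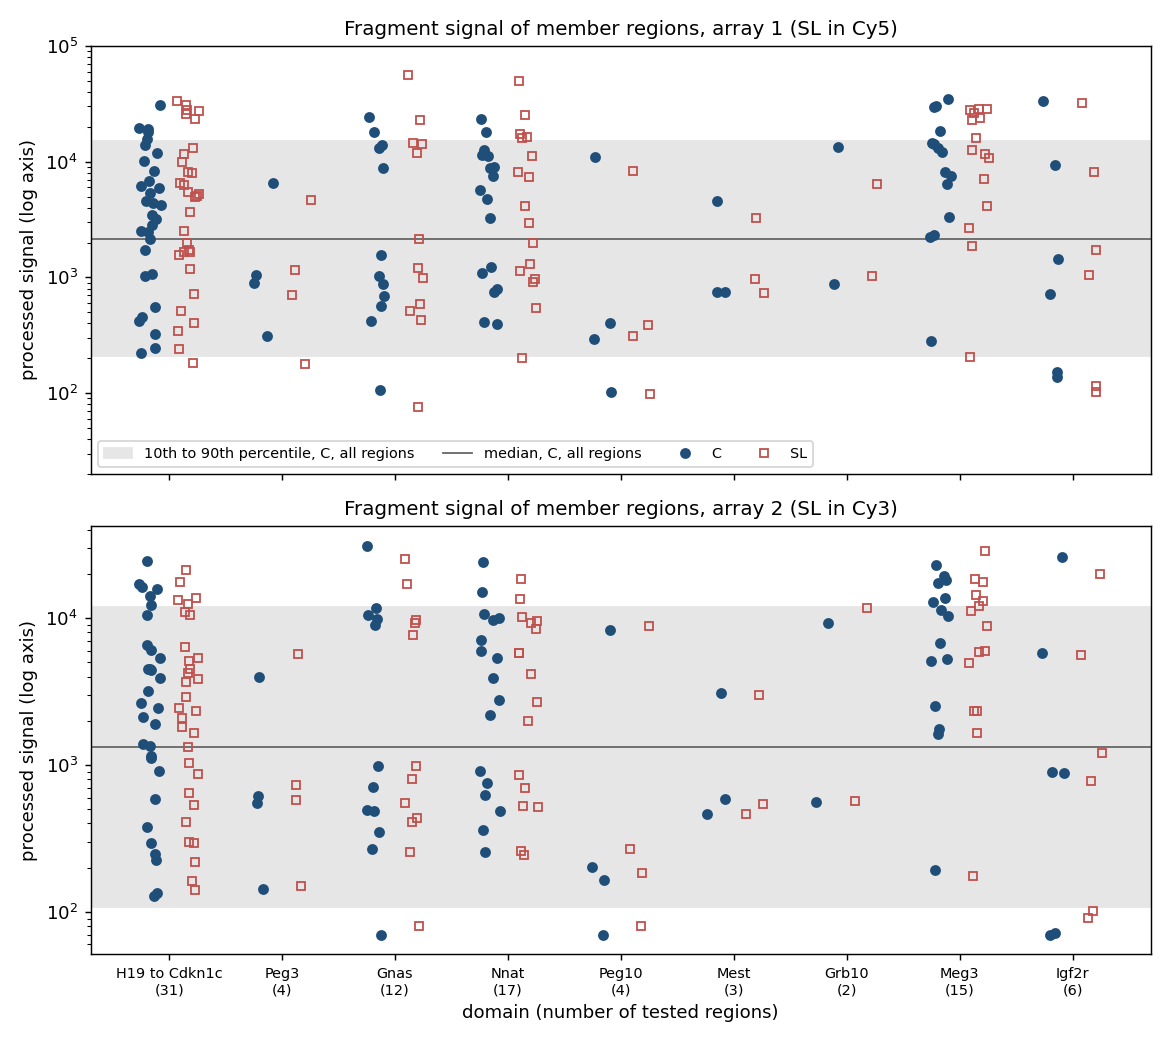
Processed signal (log axis) of each tested member region in C (filled circles) and SL (open squares), by domain, with array 1 above and array 2 below. The grey band spans the 10th to 90th percentile of C over all tested regions and the line is their median; the Meg3 regions lie high, 14 of 15 above the middle of the ranking, and the Peg10 regions low, 1 of 4 above it.

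The domains differed in where their regions lay in this ranking. In the Meg3 domain the median rank in C was 87.2 and 14 of 15 regions ranked above the middle of the array. Its exception was the region at 109992613 to 109993608, with signals of 280.3 and 192.6 in C on arrays 1 and 2, at rank 18.5. The brightest Meg3 region, at 110403239 to 110403474, gave 30030 and 22810 in C and 26230 and 18350 in SL, at rank 99.2. Bright and dim regions of this domain can lie close together: the dim region and its bright neighbour at 110009959 (rank 98.5) were 16350 bp apart.

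In the Nnat domain the median rank was 68.55, with 11 of 17 regions above the middle and 0 in the dimmest 10%. Its brightest region was at 157161392 to 157162123, with 23340 and 23950 in C and rank 98.5, and its dimmest at 157367955 to 157368422, with 397.9 and 256.5 in C and rank 24.7. The H19 to Cdkn1c domain had a median rank of 62.2, with 21 of 31 regions above the middle. It ran from the dimmest region at 142181547 to 142181780 (222.5 and 128.8 in C, rank 11.98) to the brightest at 143074877 to 143075316 (31050 and 24640, rank 99.5). At its distal end a region at rank 13.4 (143861949 to 143862338) and a region at rank 93.03 (143876172 to 143876614) lay 13833 bp apart.

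The Gnas domain had a lower median rank, 42.8, with 5 of 12 regions above the middle, and a steep contrast over a short distance. At 174085273 to 174087339 on chromosome 2, 3 regions followed each other within gaps of 470 and 526 bp. The first gave 106.9 and 69.72 in C and the second 884.0 and 494.8. The third gave 18060 and 10550. Their ranks were 3.21, 36.3 and 90.6, and the order was the same in both groups on both arrays, with SL signals of 75.39, 427.9 and 14380 on array 1 and 80.47, 551.9 and 17120 on array 2. The brightest Gnas region, at 173927681 to 173927888, ranked 99.5, with 24340 and 31060 in C.

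Both Grb10 regions lay 8254 bp apart. The 4-probe region at 11928215 to 11928503 ranked 86.4 and the 11-probe region at 11936758 to 11938624 ranked 37.02, with C signals of 13510 and 9229 for the first and 871.1 and 563.1 for the second. The 6 Igf2r regions had a median rank of 41.6 and held the brightest of all members, at 12374548 to 12374887, with 33700 and 25940 in C (rank 99.7). The next region downstream, at 12418256 to 12418520, gave 152.8 and 71.45 and ranked 5.11.

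The Peg3, Mest and Peg10 domains had the lowest median ranks. The 4 Peg3 regions had a median rank of 38.2, from 16.5 at 6043262 to 70.1 at 6256611. The 3 Mest regions had a median rank of 36.3, and the largest of them, 10 probes at 30565615 to 30568492, gave 749.8 and 460.7 in C. The 4 Peg10 regions had a median rank of 19.95 and included the dimmest member, at 4455172 to 4455522, with 101.4 and 70.09 in C and rank 3.03. A single Peg10 region ranked above the middle, at 4538941 to 4539379, with 10880 and 8253 in C.

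The comparison of SL with C asked whether overfeeding in early life goes with a different methylation pattern of these domains in the adult hypothalamus. No member region differed between SL and C by the test. Of the 94 members 0 were called by limma at an adjusted p under 0.05, and the share called over all 18545 regions was also 0%. The lowest adjusted p (limma) of a member was 0.9994. At an unadjusted p under 0.05 there were 1 of 94 members and 383 of all regions. With limma's trended or robust variance estimates the members called were again 0, against 190 and 36 of all 18545 regions. With 2 arrays the smallest p that an exact sign-flip test can give is 0.5 (two-sided).

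The design limits how small a difference could be seen. The median standard error (SE) of a member's mean log2(SL/C) over the 2 arrays was 0.34, and the 95% interval of the mean reached a median of 0.70 to either side. The intervals lay within 2-fold in both directions for 74 of the 94 members and within 3-fold for 93. The exception was the Nnat region at 157620158 to 157620289, whose interval ran from -1.745 to 0.2211. Differences of these sizes remain possible in the regions that missed the threshold.

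The arrays did not order the members alike in SL over C. The 94 members had a median log2(SL/C) of 0.12 on array 1, against -0.03 for all regions tested, and of -0.01 on array 2, the same as all regions. Ratios spread more on array 1, with an SD over members of 0.55, than on array 2, with 0.26, and the same held for all regions (0.67 and 0.34). Per the file headers, a multiplicative detrend was fitted on array 1 and none on array 2. Its part in this was not tested. Of the 94 members 13 were lower in SL on both arrays (13.8%, against 20.7% of all regions), 19 were higher on both (20.2% against 17.4%) and the remainder had opposite signs, so that 34.04% had the same sign, against 38.1% of all regions. Across the members the ratios of both arrays had a Pearson r of -0.46 and a Spearman rho of -0.47, against -0.43 and -0.35 across all regions; these are across regions of the same 2 arrays and carry no p.

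The signals themselves were ordered almost alike. Across members the log2 signal of C on array 1 and of C on array 2 had an r of 0.994, and SL had 0.974. Within an array, SL and C had 0.975 on array 1 and 0.9945 on array 2. Array, dye and pool are shared by all members in each of these values.

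No member passed 1.5-fold with both arrays in the same direction. Lower in SL on both there were 0 of 94, against 37 of 18545 (0.2%), and higher on both 0, against 4 (0.0216%). In opposite directions 2 of 94 members passed 1.5-fold (2.13%), against 425 of all regions (2.29%). The share in opposite directions was near that of the array. On array 1 alone 24 members passed 1.5-fold (25.5%, against 27.3% of all regions). By direction, 8 were lower in SL (8.51%, against 14.1% of all regions) and 16 higher (17.02% against 13.2%). On array 2 alone 4 did (4.26% against 4.02%), 1 lower (1.06% against 0.415%) and 3 higher (3.19% against 3.61%). At a lower threshold, 0.322 on the log2 scale, 2 members passed in the same direction (2.13% against 1.46%) and 10 in opposite directions (10.6% against 8.89%).

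**Figure D2:**
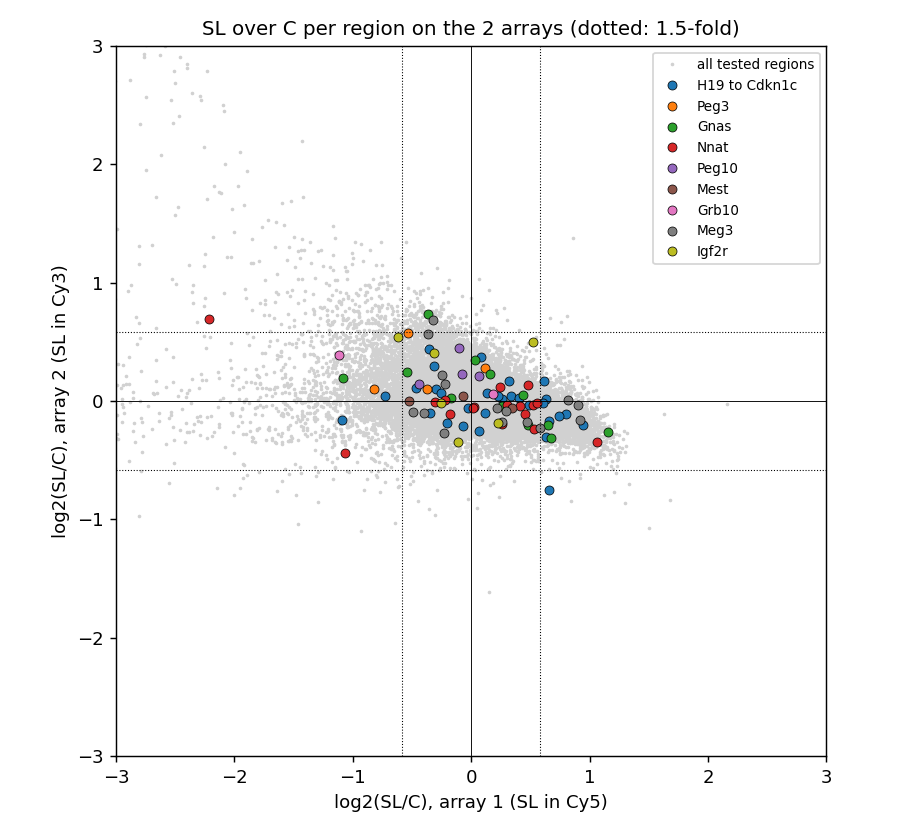
Log2(SL/C) of each tested region on array 1 (horizontal) and array 2 (vertical), with all tested regions in grey and the members coloured by domain; dotted lines mark 1.5-fold and 184 grey regions lie outside the axes. No member lies in the outer lower left or upper right corner, and the Nnat point at -2.22 and 0.69 and the H19 to Cdkn1c point at 0.66 and -0.75 are the 2 members past 1.5-fold in opposite directions.

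The member with the clearest agreement on the lower side was a 3-probe region of the Nnat domain, at 157409524 to 157409828 on chromosome 2. Its signal was 201.6 in SL and 410.9 in C on array 1, and 259.8 and 361.7 on array 2. Signal levels differed between the arrays, so each channel was also ranked on its own among all regions tested. By these ranks SL lay at 11.72 and 24.97 and C at 23.5 and 31.73 on arrays 1 and 2. SL was thus the lower within each array, but the groups overlapped across arrays. Log2(SL/C) was -1.07 on the first array and -0.44 on the second, with a mean of -0.75 ± 0.34 (SE, n = 2 arrays). The limma p was 0.0394 before adjustment and 0.9994 after it. All 3 probes were lower on both arrays, with ratios between -1.13 and -0.95 on the first and between -0.456 and -0.405 on the second. The single probe nearest to it upstream, at 157408187, had -1.35 on array 1 and 1.05 on array 2, so that it was lower in SL on array 1 alone.

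On the higher side the clearest agreement was in the Igf2r domain, in a 4-probe region at 12612563 to 12613160 on chromosome 17. It gave 1057 in SL and 714.4 in C on array 1, and 1202 and 876.7 on array 2. By rank within each channel SL lay at 41.2 and 49.16 and C at 33.15 and 44.37, so the groups again overlapped across arrays. Log2(SL/C) was 0.53 and 0.50, with a mean of 0.51 ± 0.33 (SE, n = 2 arrays; limma adjusted p = 0.9994), and each of the 4 probes was higher on both arrays, by 0.38 to 0.71 and by 0.40 to 0.63. These 2 regions are the members past the lower threshold in the same direction.

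The other members that ranked highest for agreement had smaller ratios on at least 1 array. In the H19 to Cdkn1c domain, the bright region at 142352515 to 142352781 gave 28080 in SL and 17890 in C on array 1 and 17690 and 16170 on array 2, with log2 ratios of 0.61 and 0.17 and all 4 probes higher on both. The region at 142916628 to 142916883 had 0.32 and 0.17. For the Nnat region at 157073773 to 157074638 the ratios were 0.48 and 0.13. The Gnas region with the most probes, 14 at 173971345 to 173973348, had 0.16 and 0.23, with 11 probes higher on array 1 and 10 on array 2. The Peg3 region at 6799157 to 6799495 had 0.12 and 0.28. The largest of these means was 0.3908, for the region at 142352515, and their SEs were 0.33 to 0.34.

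Among members lower in SL on both arrays, the Meg3 region at 110403239 to 110403474 had log2(SL/C) of -0.23 and -0.27. The brightest region of the H19 to Cdkn1c domain, at 143074877 to 143075316, had -0.21 and -0.18, and the brightest of the Igf2r domain, at 12374548 to 12374887, had -0.11 and -0.35. These 3 are the brightest regions of their domains, and their means lay within an SE of 0.33. The brightest regions of the other 6 domains had opposite signs on the arrays, and 20.7% of all regions tested were lower in SL on both arrays. The H19 to Cdkn1c region at 143601186 to 143601863 gave 1671 in SL and 3458 in C on array 1 but 1662 and 1908 on array 2, with -1.09 and -0.16 and a mean of -0.62 ± 0.35. The Nnat region at 157484756 to 157485485 had -0.1755 and -0.1051, with all 3 probes lower on both arrays.

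Every probe lay on the same side of 0 on both arrays in 6 of the 94 members (6.38%), against 2304 of all regions tested (12.4%). They are the regions named above at Nnat 157409524, Nnat 157484756, Igf2r 12612563, Meg3 110403239 and H19 to Cdkn1c 142352515, and a 2-probe region at 143617618 to 143618100 of the H19 to Cdkn1c domain with ratios of 0.22 and 0.04. Of the 478 kept member probes, 61 were lower in SL on both arrays (12.8%), 101 were higher on both (21.1%) and 316 had opposite signs (66.1%). Over all 86472 kept probes, the shares were 19.1% lower, 19.1% higher and 61.7% opposite, the first pair being equal by the centring on the median. Past 1.5-fold, 0 member probes agreed, against 242 lower (0.280%) and 33 higher (0.0382%) of all, and 13 lay in opposite directions (2.72% against 3.12%).

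Because the dyes were exchanged, a ratio that goes with the dye has opposite signs in SL over C. In the limma test of Cy5 over Cy3, with array 2 not turned, 1 of 94 members was called, against 481 of 18545 regions (2.59%). It was the 2-probe Nnat region at 157620158 to 157620289. Its signal was 1988 in SL and 8988 in C on array 1, and 8431 in SL and 5371 in C on array 2, so that the group labelled with Cy5 was the lower each time. Log2(SL/C) was -2.22 on array 1 and 0.69 on array 2. Mean log2(Cy5/Cy3) was -1.45, with an SE of 0.31 and a limma adjusted p of 0.000139. That SE was the same for every member, so the p does not measure how far this region's own arrays agreed. A difference on 1 array alone also enters this contrast, and here array 1 was the farther from 0.

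The second member past 1.5-fold in opposite directions ran the other way. The H19 to Cdkn1c region at 143254881 to 143255474 gave 1658 in SL and 1022 in C on array 1, and 644.2 and 1116 on array 2. Log2(SL/C) was 0.66 and -0.75, with all 4 probes higher in SL on the first array and all 4 lower on the second. It was not called in Cy5 over Cy3, with a mean of 0.71 ± 0.31 (limma adjusted p = 0.399). The Peg3 region at 6256611 to 6256824 (-0.53 and 0.57) and the Igf2r region at 12418256 to 12418520 (-0.62 and 0.54) came next in this order, with adjusted p (limma, Cy5 over Cy3) of 0.663 and 0.624.

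The medians of the arrays had opposite signs in every domain but Gnas. In Gnas the median log2(SL/C) over 12 regions was 0.21 on array 1 and 0.04 on the other, with a mean of 0.13 ± 0.12 (SD, n = 2 arrays). Nnat had 0.26 and -0.04 (0.11 ± 0.21), H19 to Cdkn1c 0.22 and -0.01 (0.105 ± 0.167) and Meg3 0.22 and -0.08 (0.07 ± 0.21). Igf2r had -0.18 and 0.20 (0.01 ± 0.27), Peg10 -0.09 and 0.22 (0.07 ± 0.22), Peg3 -0.45 and 0.19 (-0.13 ± 0.46) and Grb10 -0.46 and 0.22 (-0.12 ± 0.48). Mest lay nearest to 0 on both arrays, with -0.07 and 0.004.

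**Figure D3:**
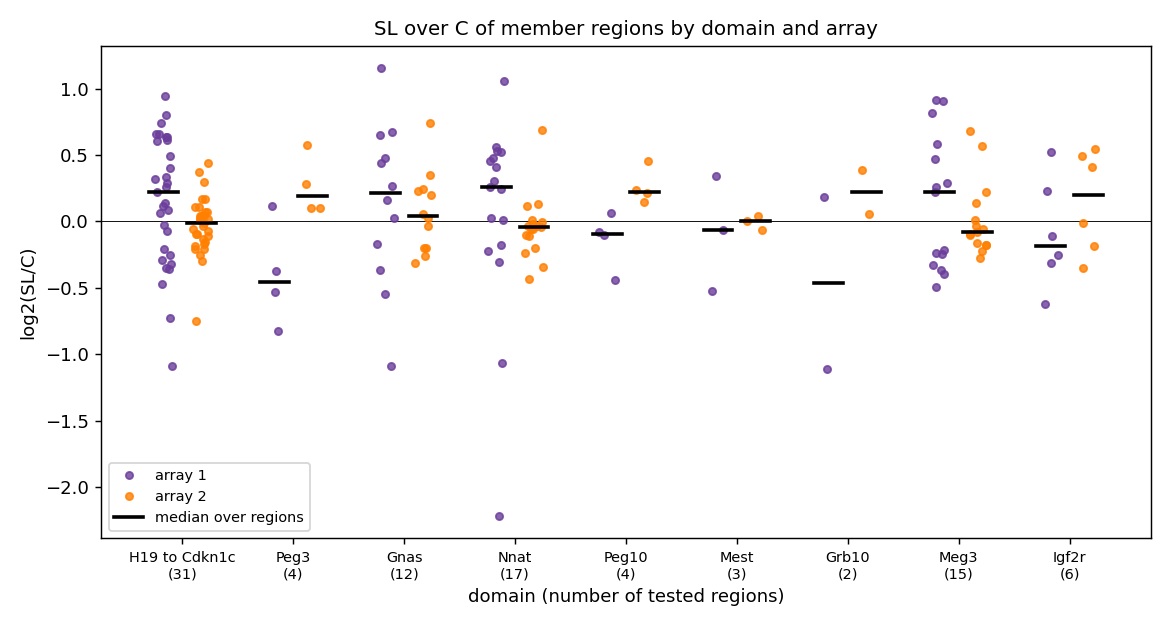
Log2(SL/C) of each tested member region by domain, with array 1 in purple, array 2 in orange and a black bar for the median over the regions of that domain and array. The purple medians of H19 to Cdkn1c, Gnas, Nnat and Meg3 lie above 0 (0.21 to 0.26). Those of Peg3 and Grb10 lie farthest below (-0.45 and -0.46), and those of Igf2r, Peg10 and Mest lie below by less (-0.18, -0.09 and -0.07). Every orange median lies between -0.08 and 0.22.

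From the dimmest to the brightest regions the median ratio moved on both arrays, in opposite directions in SL over C. Among the 13 members in the dimmest 25% of the array's ranking in C, median log2(SL/C) was -0.31 on array 1 and 0.23 on array 2. Among the 36 members in the brightest 25% it was 0.38 and -0.11. The 24 and 21 members of the classes between, each again 25% of the array, had medians of 0.17 and 0.06 on array 1 and 0.01 in both on array 2. From the dimmest to the brightest 25%, all regions tested gave -0.12, -0.03, 0.08 and 0.17 on array 1. On array 2 they gave 0.22, 0.01, -0.06 and -0.10. The dimmest and the brightest members lay in the same order as the whole array. The members of the classes between, at 0.17 and 0.06 on array 1, did not follow it. The signal of C enters both the rank and the ratio, so they are not independent. Of the domains with median ranks below 50, Igf2r, Peg3, Mest and Peg10 had medians below 0 on array 1 and above 0 on array 2 and Gnas did not, while Grb10, at rank 61.7, did. The part of brightness in the domain medians was not tested.

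The H19 to Cdkn1c domain, with the most members, was followed along the chromosome. Its 31 regions spread over 142181547 to 143876614, and the profile of bright and dim regions was repeated in all 4 channels. On array 1, 9 regions were past 1.5-fold higher in SL (29.03%, against 13.2% of all regions tested) and 2 past 1.5-fold lower (6.45% against 14.1%). On array 2, 0 were past it higher (against 3.61%) and 1 lower (3.23% against 0.415%). The region with the most probes of any member, 20 at 143268492 to 143271598, gave 6279 in SL and 4614 in C on array 1 and 3847 and 3897 on array 2. Its log2(SL/C) was 0.41 and 0.02, with 19 of 20 probes higher on array 1 and 11 of 20 on array 2. The 16-probe region at 142468461 to 142471086 had 0.14 and 0.07. With a gap of 686 bp between them, the regions at 142248968 (0.94 and -0.21) and 142250804 (0.34 and 0.04) differed more on array 1 than on array 2.

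**Figure D4:**
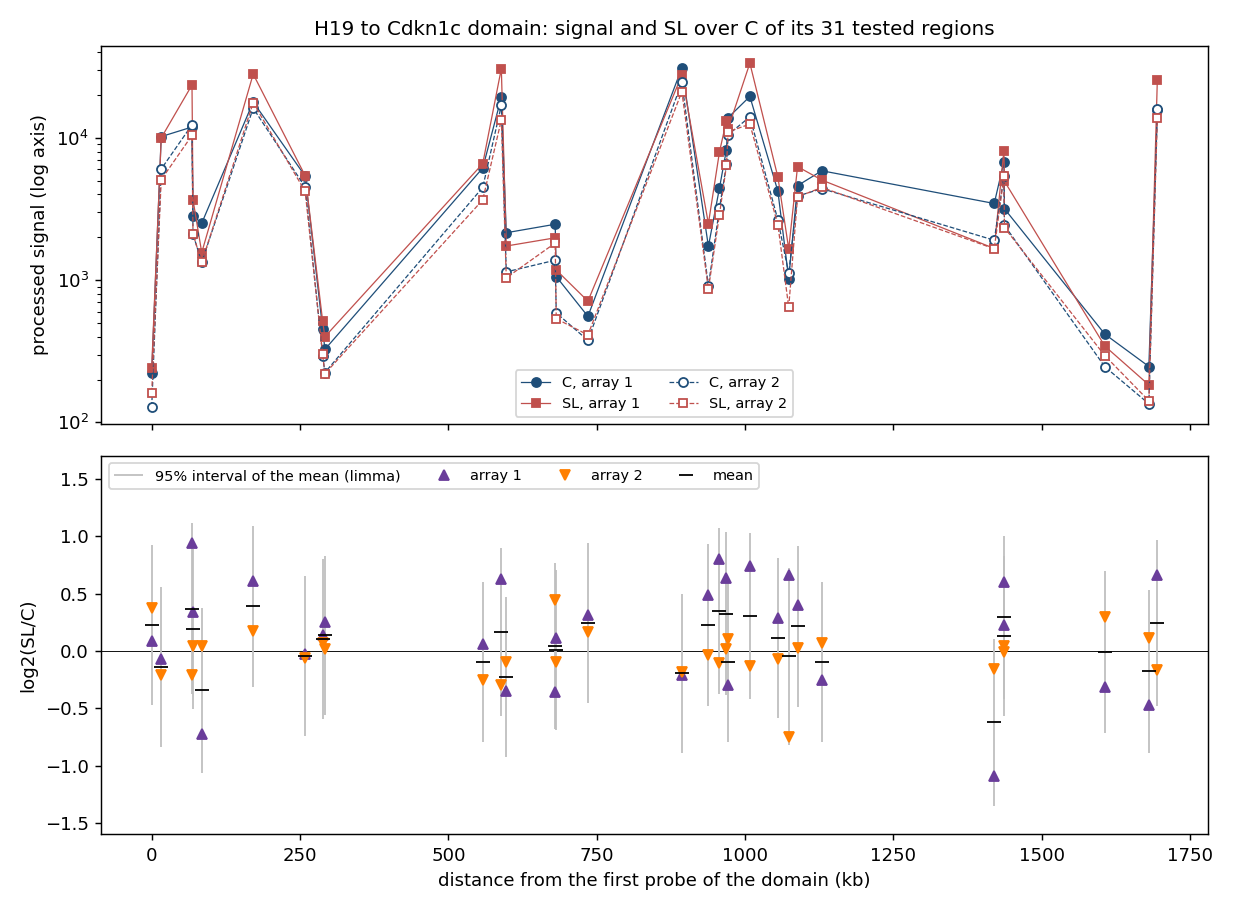
The 31 tested regions of the H19 to Cdkn1c domain by distance from the domain's first probe (kb): above, the processed signal (log axis) of SL (squares) and C (circles) on array 1 (filled) and array 2 (open), with lines joining neighbours in order only. Below, log2(SL/C) on array 1 (upward triangles), on array 2 (downward triangles) and their mean (dash) with its 95% interval from limma; every interval includes 0.

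In other large or bright regions the arrays had opposite signs in some and the same sign in others. The 11-probe Nnat region at 157157446 to 157159233 had 0.52 and -0.03, and the 11-probe Grb10 region 0.19 and 0.06. The smaller Grb10 region gave 6418 in SL and 13510 in C on array 1 but 11740 and 9229 on array 2, with -1.11 and 0.39, each of its 4 probes lower on array 1 and higher on array 2. The brightest Gnas region, at 173927681, gave 55570 in SL and 24340 in C on array 1 and 25170 and 31060 on array 2 (1.15 and -0.26), and the brightest Nnat region, at 157161392, gave 49940 and 23340, then 18360 and 23950 (1.06 and -0.34). In both, SL was higher with Cy5 and lower with Cy3. The 10-probe Mest region had -0.07 and 0.04, and the 7-probe Peg10 region at 4853043 to 4853793 had 0.06 and 0.21.

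The 18 single-probe members were not tested. Nnat held 9 of them, H19 to Cdkn1c 6, and Meg3, Igf2r and Peg3 held 1 each, and all were well above background in all 4 channels. The Peg3 probe at 6042741 to 6042791 gave 117.0 in SL and 302.2 in C on array 1 and 122.6 and 171.2 on array 2, with log2(SL/C) of -1.41 and -0.44. It was lower in SL on both arrays, as was the Nnat region above, but is a single probe. Its neighbouring 3-probe region at 6043262 had -0.82 and 0.10. The probes at Nnat 157408187 and at 143863531 of the H19 to Cdkn1c domain (-1.04 and 1.06) were past 1.5-fold in opposite directions.

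A further 9 member probes were not well above background in enough channels and were left out: 3 of Gnas, 2 of Grb10, 2 of Peg10, 1 of Meg3 and 1 of Igf2r. Their signals were 4.037 to 68.05. They lay beside the dim regions at Peg10 4455172 and Igf2r 12418256 and the 9-probe Gnas region at 173717862, and inside the dim Meg3 region at 109992613 and the 11-probe Grb10 region.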

How the data were processed

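DNA of pooled hypothalami was hybridised to 2 two-colour Agilent arrays on the same slide. The deposited intensity per channel came from Agilent Feature Extraction, run by the authors (version 9.1.3.1 per the submitters' processing notes, 10.5.1.1 per the file headers), background-subtracted and dye-normalised. Also deposited were Cy5 over Cy3 as a log10 ratio and a value table that equals it, turned to SL over C, within 0.005 on the log10 scale, which settled direction and scale.

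Each array held 90535 genomic spots (90526 probes). The 44 outlier spots were left out, and probes with signal well above background in 1 or both channels of each array were kept (86472). Log2 ratios of processed signals were expressed as SL over C and each array's median was set to 0. A region's value is the mean over its kept probes. Regions with at least 2 entered the limma fit (limma 3.58.1, R 4.3.3, intercept, eBayes, two-sided, Benjamini-Hochberg over 18545 regions). The code was run on simulated ratios, independent between arrays and with spreads from limma's fitted prior. That checks the code and not whether the fit suits these data. With 1 residual degree of freedom, limma drew each region's spread strongly to a common value in SL over C (prior degrees of freedom 18.12). In Cy5 over Cy3 every member had the same SE (0.306), so a member's own spread did not enter its p. Precision is limited by the number of arrays.

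The members, lists and tests were chosen with earlier results of these data known. Named were, per domain, the regions with most probes and the highest and lowest signal in C. Over all domains they were the called regions, up to 6 per direction with the same sign on both arrays and 4 with opposite signs, ranked by the smaller ratio. Other regions named were chosen after their values were seen. The normexp alternative used median signals, since the files hold no mean signal. No mm8 annotation was used here.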

Additional observations from a re-analysis of the deposited data

How the results depend on the processing

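Alternatives were normexp, loess, the deposited ratios, other dim-probe filters, joining gaps, probe summaries and variance estimates. The count of members called in SL over C was 0 in all 15 settings with a test, although calls over the whole array reached 190 with a trended variance, where the lowest member adjusted p (limma) was 0.300. The count called in Cy5 over Cy3 was 2 with a 250 bp gap (adding a dim Gnas pair at 173973300 to 173973348), 3 with single probes admitted and 0 with at least 3 probes. Members past 1.5-fold in opposite ways (2 in the report) numbered 5 with loess, 3 with a 250 bp gap, 4 with single probes, 1 with at least 3 probes, 1 with arrays scaled to a common spread, 10 at the lower threshold (0.322 on the log2 scale) and 0 at 2-fold. Members past it the same way numbered 1 with a common spread (Nnat 157409524), 2 at the lower threshold, and 4 to 24 when each array was left out in turn, where a single array decides. The median rank was 64.59 with no dim filter, 61.14 with a 250 bp gap, 61.65 with a 1000 bp gap, 64.66 with medians over probes, 56.22 with single probes, 61.67 with at least 3 probes, and 61.97 to 63.15 with an array left out. Of 530 values of the 36 named regions under settings other than leaving out an array, 520 kept the direction of the mean. The exceptions were Meg3 110403239 (0.07055 with a 1000 bp gap, which joins it to its neighbour) and 5 regions with arrays of opposite sign: Igf2r 12349803 (-0.006286 with medians over probes, -0.04908 with a common spread), Igf2r 12834915 (-0.02968 with a 250 bp gap), Mest 30565615 (0.002712 with normexp, 0.1226 with medians over probes, 0.007175 with a common spread), Peg3 6256611 (-0.02262 with loess) and Igf2r 12418256 (0.09219 with no dim filter, 0.1652 with a common spread). Leaving out an array turned the direction of the 19 named regions whose arrays had opposite signs, with means of -0.26 to 1.15 (Gnas 173927681), -0.54 to 0.25 (Gnas 174085273), -1.11 to 0.39 (Grb10 11928215), -0.75 to 0.66 (H19 to Cdkn1c 143254881), -0.18 to 0.23 (Igf2r 12349803), -0.62 to 0.54 (Igf2r 12418256), -0.31 to 0.41 (Igf2r 12834915), -0.22 to 0.58 (Meg3 110404004), -0.067 to 0.044 (Mest 30565615), -0.53 to 0.00402 (Mest 30602276), -0.031 to 0.52 (Nnat 157157446), -0.34 to 1.06 (Nnat 157161392), -0.0403 to 0.41 (Nnat 157367955), -2.22 to 0.69 (Nnat 157620158), -0.082 to 0.23 (Peg10 4455172), -0.44 to 0.14 (Peg10 4538941), -0.37 to 0.10 (Peg3 5923759), -0.82 to 0.10 (Peg3 6043262) and -0.53 to 0.57 (Peg3 6256611). It cannot turn the regions with the same sign on both arrays. The limma fit is itself a paired one, since each array sets SL against C, and no further block for pairing was fitted.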
